A study of Mus musculus with 3 samples.

Results

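Most of the clustered histone genes encode the histones that package DNA as it is replicated. They are short genes, mostly without introns, that lie side by side in a few clusters and are transcribed in S phase. The members were the 67 protein-coding genes of GENCODE release M21 (GRCm38) whose names start with Hist1h, Hist2h, Hist3h or Hist4h, of 21951 protein-coding genes in all. The Hist1 cluster on chromosome 13 held 54 of them, the Hist2 cluster on chromosome 3 held 10, the Hist3 pair on chromosome 11 held 2, and Hist4h4 stood alone on chromosome 6. By protein, 6 genes encode the linker histone H1, 18 encode H2A, 18 encode H2B, 12 encode H3 and 13 encode H4. The Hist1 members ran from chr13:21715763 to 23934851 and the Hist2 members from chr3:96219865 to 96270132. The gene names gave the histone type, and no measured value was used to choose a member.

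DNA methylation was read by MethylRAD in E14Tg2A, an established mouse embryonic stem cell (ESC) line. In this assay the enzyme FspEI cuts near a methylated cytosine and releases a short fragment centred on it, and more methylation at a CCGG position gives more reads there. The paper states that FspEI recognizes hydroxymethylated cytosine too, and the reads do not tell these forms apart. The undifferentiated library (day 0) came from ESCs in medium with leukemia inhibitory factor (LIF). The untreated library came from cells on day 7 of differentiation, after LIF was withdrawn and retinoic acid was added. The treated library came from cells differentiated in the same way for 7 days with 3 mM pargyline, an inhibitor of the histone demethylase LSD1. By the paper's introduction, these cells received pargyline for some hours before differentiation was induced. The days and the pargyline concentration are those of the methods. There was 1 library per condition of 1 cell line, so a difference between conditions cannot be told apart from a difference between libraries, and no test across conditions was made. The reads measure DNA methylation and not transcripts, so the labelled cell type could not be checked against marker transcripts.

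CpG-rich starts of genes that are active in every dividing cell are known to carry little DNA methylation, whereas CpG-poor DNA between and within genes is mostly methylated. Genes used in the germ line alone often have methylated starts in other cells. The clustered histone genes hold both kinds, because Hist1h1t, Hist1h2ba and Hist1h2aa encode histones of the testis and most other members serve dividing cells.

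The tables listed 31614085 CCGG reads at 870345 positions in the undifferentiated library, 36654600 reads at 882955 positions in the untreated library and 25767119 reads at 892366 positions in the treated library. A position with fewer than 5 reads was not listed. Scaled reads are reads divided by the CCGG reads of the table and given in RPM of CCGG reads, and on this scale 5 reads were 0.158, 0.136 and 0.194 in the undifferentiated, untreated and treated library, respectively. Each gene was taken with 1 kb on either side, and 55 of the 67 windows overlapped the window of another member, so a position between neighbours was counted for both genes but once in every total. The intervals given cover counting error only, with reads, or motifs for shares, taken as independent. PCR copies of a fragment were not separated, and neighbouring motifs can share a fragment.

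Near-identical copies limited what could be read in these genes. Of the 444 CCGG motifs of the reference genome in the windows, 191 (43.0%) had 28 surrounding bases that no other CCGG motif of the genome shared. In the windows of the other protein-coding genes this share was 89.4%. The coding sequences were the most repetitive, with 49 of 256 motifs found once. The authors kept reads that map to 1 place, so a fragment of a shared motif could be listed only where the sequence read differed from the copies. The motifs below were the 3 most repeated in the windows, each with its 28 bases in the alphabetically first of the 2 orientations and CCGG in capitals. The first lay in 16 H2B genes, the next in 14 H2B genes and the last in 13 H2B genes.

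H2B motif with 17 copies: gcctgctgctgcCCGGggagctggccaa
H2B motif with 14 copies: tgcaccccgacaCCGGcatctcctccaa
H2B motif with 13 copies: cgtctggatctcCCGGgacgtgatggtc

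None of the 17 copies of the first motif was listed in any library, and of the 14 copies of the second only that of Hist1h2ba was, in the treated library with 10 reads. Of the motifs that were not found once, 96 had 2 to 5 copies and 157 had 6 or more. These gave 3 and 4 listed positions, respectively, against 83 listed positions among the 191 motifs found once. An unlisted motif with copies therefore says nothing of its methylation, and shares are given below for the motifs found once wherever they are compared with other genes.

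The histone gene windows were sparsely listed. The undifferentiated library listed 51 positions (11.5% of the motifs, 95% Wilson interval 8.85% to 14.8%), the untreated library 59 (13.3%, 10.4% to 16.8%) and the treated library 67 (15.1%, 12.1% to 18.7%). Among motifs found once the shares were 26.2% (20.5% to 32.8%), 29.3% (23.3% to 36.1%) and 32.5% (26.2% to 39.4%). The other protein-coding genes had 62.8%, 64.3% and 65.1% of such motifs listed, so the intervals of the histone genes lay below them in each library. With a minimum of 10 reads, 38, 37 and 38 positions were listed. This minimum is not matched for depth and is strictest in scaled reads for the treated library, which had the fewest CCGG reads. After thinning each table to the read total of the treated library the numbers were 48, 49 and 67. At equal depth the untreated library thus listed about as many positions as the undifferentiated library, and the treated library listed more.

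**Figure D1:**
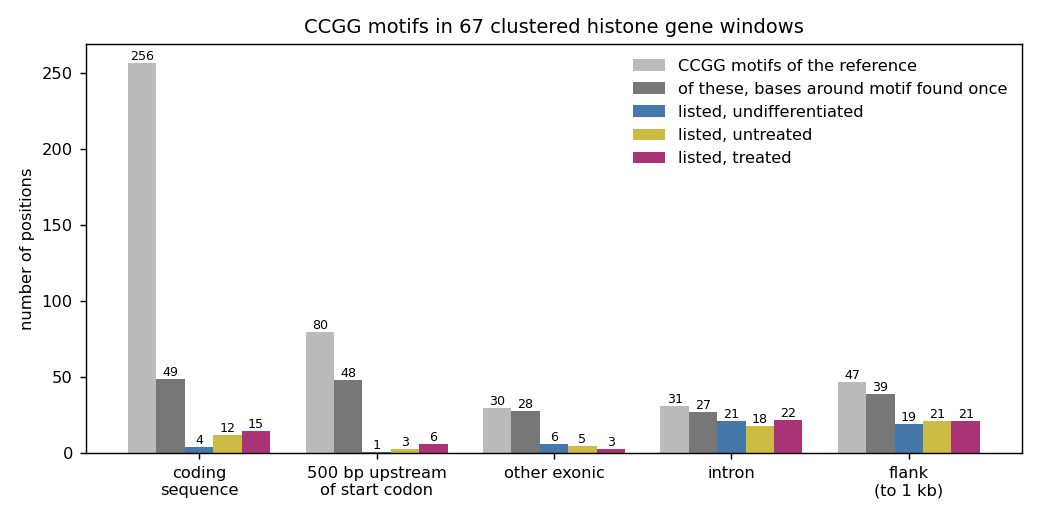
Number of CCGG motifs in the windows of the 67 clustered histone genes by place in the gene (grey), those whose 28 bases are found once (dark grey) and those listed with at least 5 reads in each library (coloured bars). The coding sequences hold 256 motifs, of which 4, 12 and 15 were listed in the undifferentiated, untreated and treated library, whereas introns hold 31, of which 21, 18 and 22 were listed.

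The listed share differed with the place of a motif in the gene. In the coding sequences, 4 of 49 motifs found once were listed in the undifferentiated library (8.16%, 3.22% to 19.2%), 10 in the untreated library (20.4%) and 12 in the treated library (24.5%). In the 500 bp upstream of the start codons, 1, 3 and 6 of 48 motifs found once were listed. In introns, 20, 17 and 21 of 27 were listed (74.1%, 63.0% and 77.8%). In the flanks, 19, 21 and 20 of 39 were listed (48.7%, 53.8% and 51.3%), and in other exonic sequence 6, 5 and 3 of 28 (21.4%, 17.9% and 10.7%).

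CpG content separated the positions in the same way. It was classed in 500 bp windows by the ratio of observed to expected CpG and the GC content, with the limits of the study's methods. At low CpG content, 55.8% (44.7% to 66.4%), 53.2% and 55.8% of 77 motifs found once were listed in the undifferentiated, untreated and treated library, against 77.3%, 77.3% and 76.9% in other genes. At intermediate CpG content the shares were 7.32% (3.40% to 15.1%), 13.4% and 14.6% of 82 motifs, against 33.4%, 39.8% and 45.5%. At high CpG content they were 3.12% (1 of 32 motifs), 12.5% (4) and 21.9% (7), against 3.0%, 9.19% and 11.3% in other genes. The histone intervals (0.554% to 15.7%, 4.97% to 28.1% and 11% to 38.8%) included the value of the other genes in each library.

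**Figure D2:**
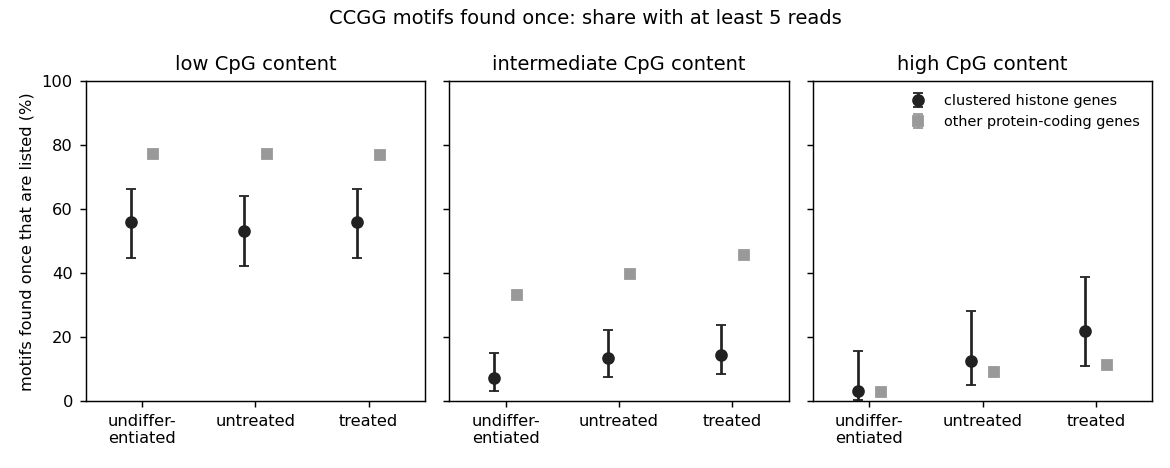
Share of CCGG motifs found once that were listed with at least 5 reads, by CpG content, for clustered histone genes (circles) and other protein-coding genes (squares), with 95% Wilson intervals. Histone genes lie below other genes at low and intermediate CpG content, and at high CpG content their wide intervals reach from 0.554% to 38.8%.

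When only motifs within 500 bp of a gene's annotated start were compared, the histone genes lay closer to other genes over all CpG classes. Of 97 such motifs found once, 6.19% (2.87% to 12.8%), 13.4% (8.0% to 21.6%) and 19.6% (12.9% to 28.6%) were listed in the undifferentiated, untreated and treated library. The values of the other protein-coding genes were 10.6%, 16.9% and 20.4%, each within the histone interval. Within the CpG classes the motifs found once were few. At low CpG content 2, 2 and 3 of 9 were listed (22.2%, 22.2% and 33.3%, against 51.9%, 55.8% and 62.0% in other genes), and the value of the other genes lay above the histone interval in the untreated library (6.32% to 54.7%) and within it in the undifferentiated and treated library (6.32% to 54.7% and 12.1% to 64.6%). At intermediate content 3, 8 and 10 of 60 were listed (5.0%, 13.3% and 16.7%, against 9.02%, 17.0% and 23.5% in other genes), and at high content 1, 3 and 6 of 28 (3.57%, 10.7% and 21.4%, against 1.76%, 7.58% and 8.75%). At high content the interval of the treated library (10.2% to 39.5%) lay above the value of the other genes, and those of the first 2 libraries (0.633% to 17.7% and 3.71% to 27.2%) included it.

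Of the 67 genes, 28 (41.8%) had no listed position in any library, against 8.56% of all protein-coding genes. By library, 42, 37 and 35 histone genes had none in the undifferentiated, untreated and treated cells. The genes without a position were the H1 gene Hist1h1e, the H2A genes Hist1h2ab, Hist1h2ad, Hist1h2af, Hist1h2ag, Hist1h2ah, Hist1h2an, Hist1h2ao and Hist1h2ap, the H2B genes Hist1h2bb, Hist1h2bf, Hist1h2bg, Hist1h2bj, Hist1h2bm, Hist1h2bp, Hist1h2bq, Hist1h2br and Hist2h2bb, the H3 genes Hist1h3b, Hist1h3g and Hist2h3c1, and the H4 genes Hist1h4b, Hist1h4d, Hist1h4i, Hist1h4j, Hist1h4k, Hist1h4m and Hist1h4n. For 15 of these 28 no motif of the window was found once, so that a read there could rarely be placed. The other 13 had such motifs, among them Hist1h1e with 6, Hist1h2bb with 5, and Hist1h3g and Hist2h2bb with 4 each, and at these motifs fewer than 5 reads were counted in every library.

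**Figure D3:**
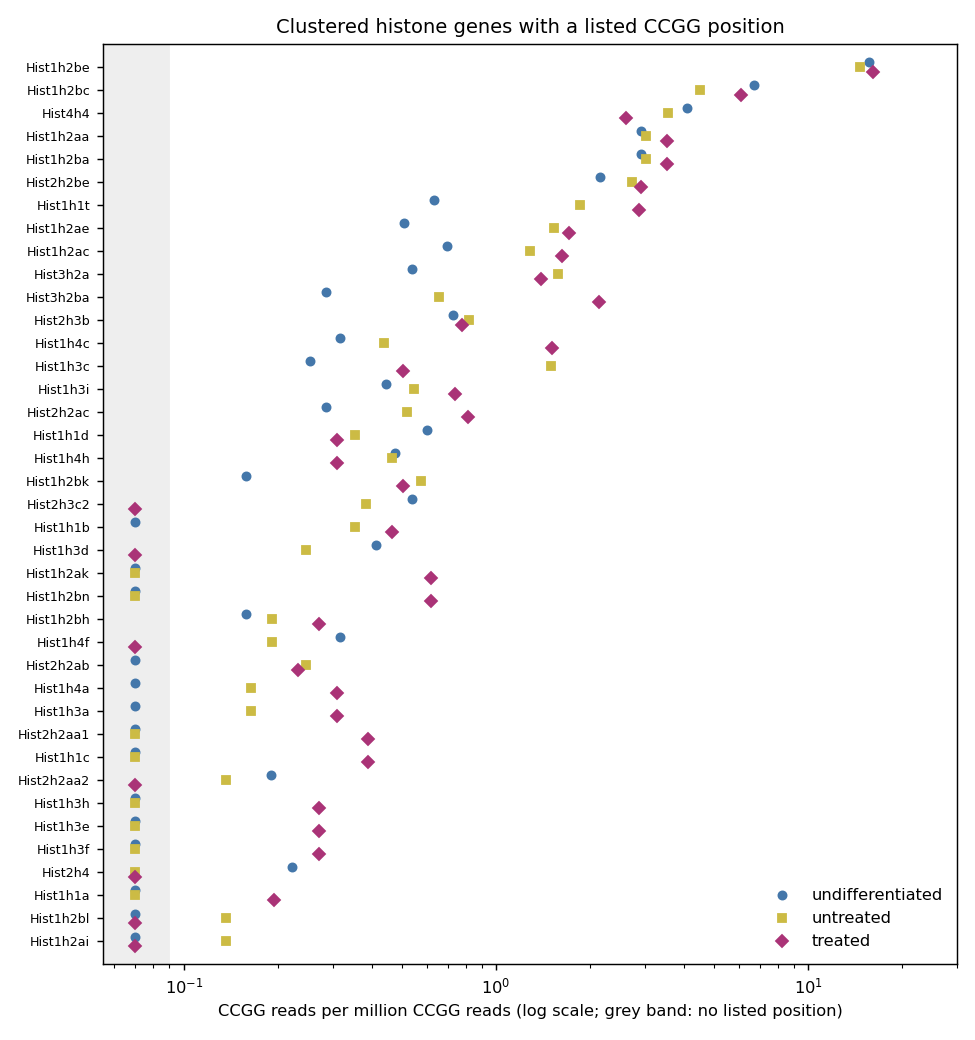
Scaled reads (log scale, CCGG reads in RPM of all CCGG reads of the library) in the window of each of the 39 clustered histone genes with a listed position, in the 3 libraries, ordered by their sum. Points in the grey band had no listed position; Hist1h2be and Hist1h2bc lie at the top and most genes lie under 1.

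The windows together held 1221 reads in the undifferentiated library, 1537 in the untreated library and 1258 in the treated library, which are 38.6, 41.9 and 48.8 scaled reads. More than any other gene, Hist1h2be, an H2B gene with an annotated long transcript that spans 37455 bp (chr13:23583670-23621124, minus strand), carried them. It had 494, 538 and 415 reads at 19 positions, or 15.6, 14.7 and 16.1 scaled reads. Hist1h2bc, also an H2B gene with a long transcript (8710 bp), had 212, 165 and 157 reads at 8 positions (6.71, 4.5 and 6.09 scaled reads). These 2 genes held 57.8%, 45.7% and 45.5% of the reads of all windows, nearly all of them in introns far from the coding unit.

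By scaled reads summed over the 3 libraries, the 3 deepest positions of all windows lay in the long intron of Hist1h2be, in CpG-poor sequence. In the treated library alone, a position near Hist1h1t had more reads than some of these 3 positions. The 3 intron positions held 18.8%, 19.0% and 12.6% of the window reads of the undifferentiated, untreated and treated library. They are shown as the deepest by that sum, with 32 bases of the plus strand of GRCm38 and CCGG in capitals.

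chr13:23591497-23591528: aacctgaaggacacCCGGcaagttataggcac
chr13:23607708-23607739: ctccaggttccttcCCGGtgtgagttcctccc
chr13:23608660-23608691: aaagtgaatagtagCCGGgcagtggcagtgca

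The first had 78, 119 and 52 reads in the undifferentiated, untreated and treated library. The next had 102, 90 and 42 reads, and its scaled level in the treated library was 0.505 of that in undifferentiated cells (95% exact interval 0.344 to 0.730). The last had 50, 83 and 64 reads. The order of the libraries thus differed from position to position within this intron, and the sums over the gene stayed close: the treated to undifferentiated ratio of Hist1h2be was 1.01 (0.886 to 1.15). For a ratio, a position that another library listed but this one did not was taken at 4 reads. These 4 reads enter the interval of a ratio as if they were counted, so the interval does not cover their uncertainty.

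Hist1h1e, an H1 gene whose annotated span overlaps that of Hist1h2be in part, had no listed position in its own window. Its window has 9 motifs, and 6 of them are found once.

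The testis genes were the exception among the coding units. Hist1h2ba (H2B, chr13:23933773-23934156, minus strand) and Hist1h2aa (H2A, chr13:23934462-23934851, plus strand) are transcribed away from each other, stand at the end of the cluster and share all 5 listed positions of their windows, all of them in coding sequence. Distances are counted from the start codon. The positions are shown on the plus strand of GRCm38 with CCGG in capitals.

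Hist1h2ba +6: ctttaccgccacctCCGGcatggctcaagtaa
Hist1h2ba +86: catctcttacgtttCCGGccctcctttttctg
Hist1h2aa +212: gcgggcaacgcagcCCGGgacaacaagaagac

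The position at +86 of Hist1h2ba had 42, 44 and 49 reads in the undifferentiated, untreated and treated library. It was the only one of 13 listed positions of high CpG content that all 3 libraries listed, and the only such position listed in undifferentiated cells. Hist1h2aa had 37, 41 and 19 reads at +212, and 13 and 9 reads at +95 in the undifferentiated and untreated libraries. The position at +6 of Hist1h2ba was unlisted in undifferentiated cells and had 17 and 13 reads on day 7. The position at +163 of Hist1h2ba had 10 reads in the treated library alone, and its 28 bases are the motif with 14 copies printed above. Over the pair of genes the libraries held 92, 111 and 91 reads, and the scaled ratios were 0.992 (0.752 to 1.31) for untreated to undifferentiated and 1.17 (0.871 to 1.56) for treated to undifferentiated.

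Hist1h1t, the testis H1 gene (chr13:23695814-23696725), had 20, 68 and 74 reads at 3 positions. In scaled reads these were 0.633, 1.86 and 2.87, so both libraries of day 7 lay above undifferentiated cells. The ratio was 2.44 (1.51 to 4.07) for untreated and 3.78 (2.36 to 6.27) for treated to undifferentiated cells. With 2 kb on each side these ratios were 1.41 and 2.26. Most of the reads came from a CpG-poor position at -947 bp, with 14, 49 and 56 reads. The coding position at +410 had 6, 13 and 9 reads, and the position at -150 was unlisted in undifferentiated cells and had 6 and 9 reads on day 7.

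Outside the testis genes the coding units were almost free of listed reads in undifferentiated cells. Over their coding sequences and the 500 bp upstream, 1 of the 20 positions listed in any library was listed in undifferentiated cells, with 10 reads. The untreated library listed 9 with 65 reads and the treated library 15 with 135 reads. A position entered this set because at least 1 library listed it, so no ratio is given. Most of these positions had few reads: coding and upstream positions with at least 10 reads, testis genes included, numbered 4, 5 and 6.

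**Figure D4:**
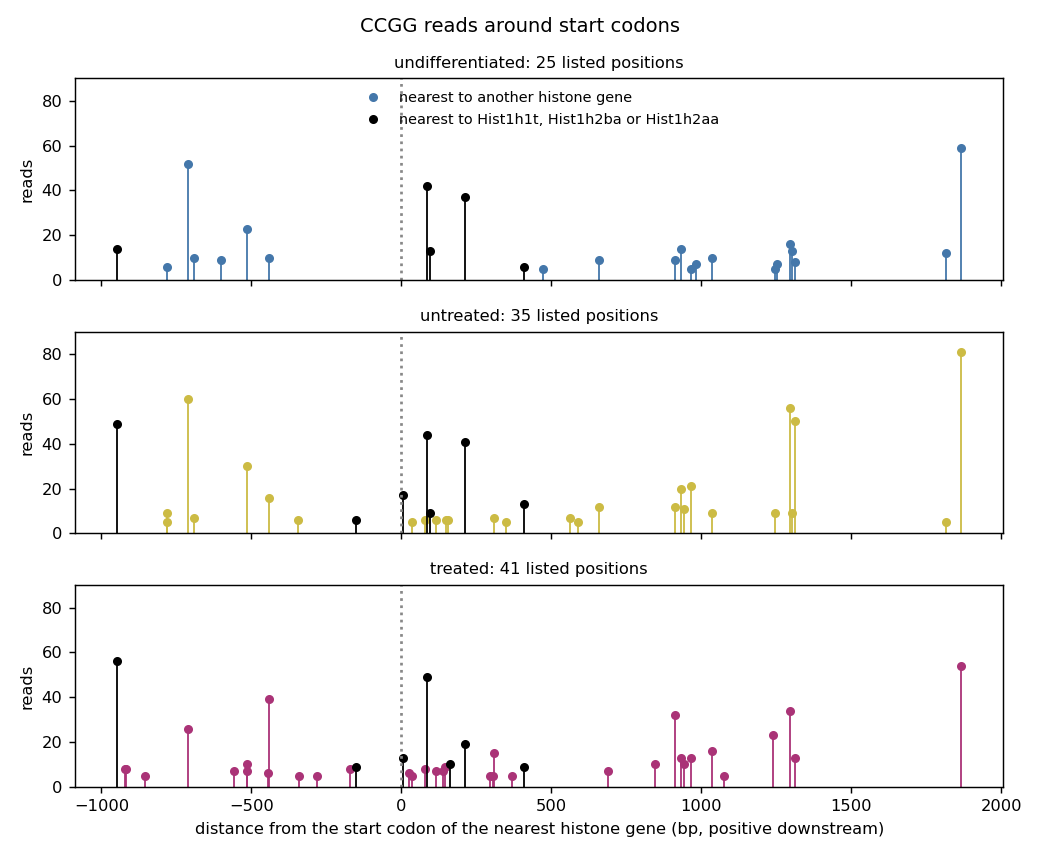
Reads at listed CCGG positions from 1 kb before to 2 kb after the start codon of the nearest clustered histone gene, for each library (25, 35 and 41 positions); black points are nearest to the testis genes. In the 250 bp after the start codon the tallest lines are those of the testis genes in each library, and on day 7 low lines appear at other genes.

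The remaining H1 genes had unique sequence and few reads. H1 coding sequences hold 27 motifs, of which 19 were found once, a larger share than in the coding sequences of H2A (11 of 88), H2B (12 of 58), H3 (4 of 59) and H4 (3 of 24). Of these 19, 1, 4 and 6 were listed in the undifferentiated, untreated and treated library, and the one of undifferentiated cells was that of Hist1h1t. Hist1h1d, with the most scaled reads after Hist1h1t, had 19, 13 and 8 reads, with ratios of 0.637 (0.320 to 1.25) and 0.854 (0.421 to 1.69) for untreated and treated to undifferentiated cells. Its CpG-rich coding position at +79 was unlisted in undifferentiated cells and had 6 and 8 reads on day 7. Hist1h1b had 13 reads in the untreated library and 12 in the treated library and no listed position in undifferentiated cells. Hist1h1c, with 11 motifs found once, was listed in the treated library alone, at 2 coding positions 9 bases apart with 5 reads each. Such neighbours can be covered by the same fragment, and the windows held 4 pairs of listed positions within 10 bases. Hist1h1a had 5 reads, in the treated library.

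Of the 18 H2A genes, 10 had a listed position and 5 had at least 30 reads over the libraries. Apart from Hist1h2aa, Hist1h2ae had the most, with 16, 56 and 44 reads (0.506, 1.53 and 1.71 scaled). It was higher in both libraries of day 7, by 2.59-fold (1.54 to 4.53) and 2.70-fold (1.56 to 4.83), and on the deposited RPM scale, which divides by all mapped reads and not by CCGG reads, by 2.07-fold and 1.67-fold. Its reads lay downstream of the gene, with 16, 56 and 34 at +1294. Hist1h2ac had 22, 47 and 42 reads, and Hist2h2ac had 9, 19 and 21. The ratio of treated to undifferentiated cells was 1.98 (1.19 to 3.37) for Hist1h2ac and 1.80 (0.936 to 3.56) for Hist2h2ac.

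Of the 18 H2B genes, 9 had a listed position. Besides Hist1h2be, Hist1h2bc and Hist1h2ba, the H2B gene with the most reads was Hist2h2be, which encodes a variant H2B known from olfactory neurons, with 68, 100 and 75 reads (2.15, 2.73 and 2.91 scaled), with ratios of 1.18 (0.870 to 1.61) and 1.28 (0.919 to 1.77) to undifferentiated cells. Most of them lay in its long transcript at +1866, with 59, 81 and 54 reads. Its coding position at +310 was unlisted in undifferentiated cells and had 7 and 15 reads in the untreated and treated library. Hist1h2bk had 5, 21 and 13 reads at 1 CpG-poor position at +964. Its ratio was 3.62 for untreated and 3.19 for treated to undifferentiated cells, with wide intervals (1.33 to 12.3 and 1.07 to 11.4), and on the deposited RPM scale these were 2.90 and 1.97.

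Of the 12 H3 genes, 9 had a listed position. Hist2h3b had 23, 30 and 20 reads and Hist1h3c had 8, 55 and 13. The untreated library stood above the other two at Hist1h3c: its ratio was 3.95 (2.09 to 8.11) to undifferentiated cells, and treated to untreated cells had a ratio of 0.440 (0.239 to 0.769). All but 5 of these reads came from 1 position downstream of the gene, at +1312, with 8, 50 and 13 reads, and the 5 were untreated reads at the coding position +37. Hist2h3c2 had 17 and 14 reads in the first 2 libraries and none listed in the treated library. No H3 coding motif was listed in undifferentiated cells, and only 4 of the 59 were found once.

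Of the 13 H4 genes, 6 had a listed position, and no coding motif of an H4 gene was listed in any library. Hist4h4 (chr6:136801553-136804415, minus strand) had 129, 130 and 67 reads at 5 positions, which are 4.08, 3.55 and 2.60 scaled reads. The treated library was the lowest, at 0.655 (0.484 to 0.880) of undifferentiated cells, and 0.777 (0.573 to 1.05) of untreated cells. Its deepest position, at -710 bp, had 52, 60 and 26 reads. Hist1h4c had 10, 16 and 39 reads at 1 CpG-poor position at -442 bp, so that the treated library was higher than undifferentiated cells by 4.78-fold (2.35 to 10.7) and than untreated cells by 3.47-fold (1.89 to 6.65). Hist1h4h had 15, 17 and 8 reads, with a treated to undifferentiated ratio of 0.654 (0.240 to 1.64). Among positions in the 500 bp before a start codon, that of Hist1h4c had the most reads in the treated library.

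Hist1h4c -442: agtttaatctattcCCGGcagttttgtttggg

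With 1 kb on each side, the 2 genes of the Hist3 cluster were both higher in the treated library than in undifferentiated cells. The 1 listed position in the space between their windows went the other way. It had 63, 33 and 16 reads (1.99, 0.900 and 0.621 scaled) in the undifferentiated, untreated and treated library. Hist3h2a (H2A, chr11:58954685-58956830) had 17, 58 and 36 reads at 1 position downstream, which also lies within 1 kb of Trim17, and was higher by 2.94-fold (1.69 to 5.39) in untreated and 2.60-fold (1.42 to 4.93) in treated cells, or by 2.36-fold and 1.61-fold on the deposited RPM scale. Hist3h2ba (H2B, chr11:58948920-58949533) had 9, 24 and 55 reads. Its ratio was 1.15 (0.630 to 2.13) for untreated and 3.68 (2.22 to 6.35) for treated to undifferentiated cells, with 3 of its 4 positions absent from undifferentiated cells and taken at 4 reads. With absent positions at 0 reads the ratios were 2.3 and 7.5, and with 2 kb on each side they were 0.626 and 1.15. The reads of the treated library lay downstream, with 9, 12 and 32 reads at +911 and 23 reads at +1238, which the other libraries did not list. Its 2 coding positions, 7 bases apart, had 6 reads each in the untreated library alone.

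A ratio covers the positions that at least 1 library listed, with absent ones at 4 reads. Over all windows the scaled reads of untreated and undifferentiated cells had a ratio of 1.04 (0.968 to 1.12). The treated library was at 1.20 (1.12 to 1.30) of undifferentiated cells and 1.16 (1.08 to 1.24) of untreated cells. Without Hist1h2be and Hist1h2bc, a setting chosen after seeing the data, these ratios were 1.22 (1.10 to 1.35), 1.44 (1.29 to 1.60) and 1.18 (1.07 to 1.30). On the deposited RPM scale the windows of the treated library were lower, at 0.743 of undifferentiated and 0.891 of untreated cells, and the untreated library was at 0.834 of undifferentiated cells.

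By gene, 20 members had at least 30 reads over the 3 libraries, and a gene was called at a ratio of at least 2 or at most 0.5. In untreated against undifferentiated cells, 5 were higher (Hist1h3c, Hist1h2bk, Hist3h2a, Hist1h2ae and Hist1h1t), where 1.50% of 19622 protein-coding genes were called, and 0 were lower, where 2.14% were. In treated against undifferentiated cells, 6 were higher (Hist1h4c, Hist1h1t, Hist3h2ba, Hist1h2bk, Hist1h2ae and Hist3h2a) against 3.65%, and 0 were lower against 1.88%. In treated against untreated cells, 2 were higher (Hist1h4c and Hist3h2ba) against 1.99%, and Hist1h3c was lower against 0.418%. On the deposited RPM scale, Hist1h2bk, Hist1h2ae and Hist3h2a were no longer called in treated against undifferentiated cells, which left 3 higher, and Hist1h4h, Hist2h3c2, Hist2h3b and Hist4h4 were called lower. In untreated against undifferentiated cells Hist1h1t (1.96) was no longer called on that scale. With 2 kb on each side, 31 genes had enough reads, of which 6 were higher and 2 lower in untreated, and 8 higher and 3 lower in treated against undifferentiated cells. In that setting Hist1h1t was no longer called in untreated (1.41) and Hist3h2ba no longer in treated against undifferentiated cells (1.15). Some neighbours with overlapping windows were called at the same ratio, such as Hist1h2ah and Hist1h2bk. These comparisons share libraries, so the calls are not independent of each other. The lowest ratios that were not called were those of Hist1h1d, Hist2h3c2 and Hist1h2bc for untreated to undifferentiated (0.637, 0.710 and 0.720), and of Hist2h3c2, Hist1h4h and Hist4h4 for treated to undifferentiated cells (0.577, 0.654 and 0.655). A gene ratio is a lower bound where positions were absent from the second library alone and an upper bound where they were absent from the first alone. The untreated to undifferentiated ratios of Hist1h3c and Hist1h1t and the treated to undifferentiated ratios of Hist1h1t and Hist1h2ae were lower bounds in this sense, and those of Hist1h2bc (0.720), Hist2h3c2 (0.577) and, for treated to untreated cells, Hist1h3c (0.440) were upper bounds.

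**Figure D5:**
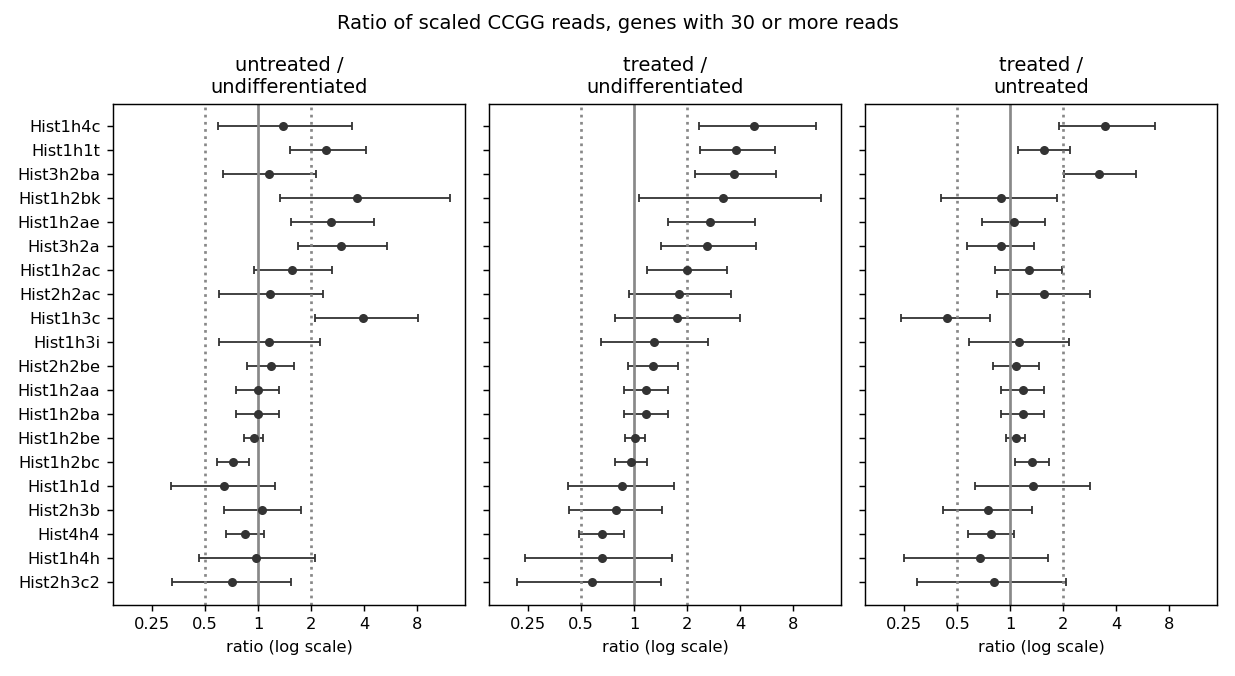
Ratio of scaled CCGG reads between libraries (log scale) for the 20 clustered histone genes with at least 30 reads, with 95% exact intervals for counting error. The reads given to absent positions enter these intervals as if counted. Dotted lines mark ratios of 0.5 and 2; Hist1h4c, Hist1h1t and Hist3h2ba have the highest treated to undifferentiated ratios and Hist1h2be lies close to 1.

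The genes called had few reads. The tested histone genes had a median of 99.5 summed reads, against 1277 for all genes tested. Among the 3127 protein-coding genes with 30 to 300 summed reads, 7.96% were called higher in untreated and 16.9% in treated against undifferentiated cells, and 9.88% in treated against untreated cells. Of the 17 histone genes in this range, 5, 6 and 2 were higher, and 11.4%, 9.34% and 2.43% of the 3127 genes were lower where 0, 0 and 1 of the histone genes were. For 6 of the 7 genes called in any comparison the deepest position was a CpG-poor flank, and for Hist1h4c it was the CpG-poor position at -442 bp. With the gene alone and no flank, 6 genes had enough reads and the higher calls were 0, 0 and 1.

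The median ratio of the 20 histone genes was 1.15 for untreated to undifferentiated, 1.29 for treated to undifferentiated and 1.10 for treated to untreated cells. Over all 19622 genes it was 0.985, 1.0 and 1.01. By position the median ratios were 0.883, 1.53 and 1.42, but 39, 31 and 23 of the 90 positions were absent from the undifferentiated, untreated and treated table and taken at 4 reads. These medians are set by that value and are not compared with the genome.

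The windows held 90 positions that any library listed. All 3 libraries listed 36 of them (40.0%), where they shared 71.9% of all listed CCGG positions. The treated library alone listed 23 (25.6%, against 5.66% of all listed positions), the untreated library alone 9 (10%, against 3.07%) and the undifferentiated library alone 7 (7.78%, against 5.31%). Both libraries of day 7 but not undifferentiated cells listed 7 (7.78%, against 6.46%). Of the 23 in the treated library alone, 19 had fewer than 10 reads and 12 lay in coding sequence or upstream of it. The share of listed positions with fewer than 10 reads was 25.5%, 37.3% and 43.3% in the 3 libraries, against 15.7%, 16% and 19.3% in the genome.

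Of the 90 positions, 9 were at least 2-fold higher and 11 lower in untreated against undifferentiated cells, where 15.1% and 18.4% of all CCGG positions were. In treated against undifferentiated cells 30 were higher, against 23.0%, and 11 lower, against 17.2%. In treated against untreated cells 25 were higher, against 15.8%, and 5 lower, against 5.75%. The 4 reads given to an absent position scale to 0.127, 0.109 and 0.155 in the undifferentiated, untreated and treated library, so that 7 reads in the treated library alone already gave 2.15-fold over undifferentiated cells. The part of this limit in the higher numbers of the treated library was not tested, beyond the equal numbers at 10 reads and the unequal numbers after thinning above.

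Within 500 bp of a gene start, most of the highest ratios were those of positions absent from the library compared with. A ratio against an absent position is a lower bound, set by the 4 reads given to it, and has no interval here. In untreated against undifferentiated cells the highest were Hist1h2ba at +6 (at least 3.67, with 17 untreated reads), Hist1h1t at +410 (1.87, 0.663 to 6.0) and Hist2h2be at +310 (at least 1.51, with 7 reads). In treated against undifferentiated cells they were Hist1h4c at -442, listed in both, Hist2h2be at +310 (at least 4.60, with 15 treated reads) and Hist1h2ba at +6 (at least 3.99, with 13 reads). In treated against untreated cells they were Hist1h2ba at +163 (at least 3.56, with 10 treated reads), Hist1h4c at -442 and Hist1h2ak at +147 (at least 3.20, with 9 reads). The lowest were Hist1h2aa at +95, with a ratio of 0.597 for untreated to undifferentiated cells and of at most 0.378 and 0.632 for the treated library, which did not list it, Hist2h3b at -516, with 0.533 and 0.474 for treated to undifferentiated and to untreated cells, and Hist1h2aa at +212, with 0.630 and 0.659. The next lowest in untreated against undifferentiated cells were positions listed in neither, such as Hist1h1b at +370, whose ratio of 0.862 comes from the depths alone. The position of Hist1h2ak at +147 and its neighbour at +139 lay in the H2A coding sequence, with 9 and 7 reads in the treated library alone, and are also within the window of Hist1h2bn. The same fragment can cover both. The window of Hist1h2ak has only 1 motif found once, so at least 1 of these positions has copies elsewhere.

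The 24 spaces of at most 20 kb between the windows of neighbouring genes covered 121733 bp and held 68 motifs, or 0.559 per kb, against 2.23 per kb in the windows and 0.598 per kb in the genome. Of 28 motifs found once, 20, 18 and 19 were listed (71.4%, 64.3% and 67.9%, with intervals of 52.9% to 84.7%, 45.8% to 79.3% and 49.3% to 82.1%), above the intervals of the windows over all CpG classes. Of these 28 motifs 27 had low CpG content, and at low content the spaces (70.4%, 66.7% and 66.7%, from 51.5%, 47.8% and 47.8%) and the windows (55.8%, 53.2% and 55.8%, up to 66.4%, 64.0% and 66.4%) had intervals that overlapped. The 23 listed positions held 711, 706 and 448 reads. The median listed position had 30, 21 and 15.5 reads, against 15, 16 and 10 in the windows.

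In the spaces the scaled ratio was 0.866 (0.780 to 0.962) for untreated and 0.785 (0.697 to 0.884) for treated to undifferentiated cells, and 0.906 (0.805 to 1.02) for treated to untreated cells. On the deposited RPM scale these were 0.694, 0.485 and 0.699. The space between Hist2h3c1 and Hist2h4 contributed 185, 115 and 49 reads, or 5.85, 3.14 and 1.90 scaled reads in undifferentiated, untreated and treated cells. Without this space, a setting chosen after seeing the data, the ratios were 0.980 (0.871 to 1.10), 0.944 (0.828 to 1.08) and 0.963 (0.848 to 1.09). In the space between Hist2h2aa2 and Hist2h2aa1 the untreated library had the highest level of the 3 libraries, with 44, 92 and 30 reads at 1 position. The motif of that position was not found once.

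Promoters of the members were compared with those of other genes by sequence alone, to show what surrounds the sparsely listed starts. RefSeq sequences of 250 bases before and 50 after the start (GRCm38) were found for 62 of the 67 genes. The letters CCAAT were in 85.5% of them, on either strand, against 37.4% of 32851 promoters of all genes, and TATAA in 79.0% against 24.9%. The octamer ATTTGCAT, known from H2B promoters, was in 21% against 1.74%. CCGG was in 35.5% against 52.8%, although the median number of CpGs was 11 against 7, so most of these promoters have no CCGG at which this assay could read them.

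The 250 bases before the start of 2 genes with a listed promoter position are shown, on the strand of the gene, with CCGG, CCAAT and TATAA (or their complements) in capitals. Hist1h1t has 1 CCGG, at base 156, which is its position at -150 and was listed on day 7 with 6 and 9 reads. Hist1h4a has 5 CCGG, of which the fourth, at base 170, was listed with 8 reads in the treated library alone.

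Hist1h1t, chr13:23695561-23695810, plus strand: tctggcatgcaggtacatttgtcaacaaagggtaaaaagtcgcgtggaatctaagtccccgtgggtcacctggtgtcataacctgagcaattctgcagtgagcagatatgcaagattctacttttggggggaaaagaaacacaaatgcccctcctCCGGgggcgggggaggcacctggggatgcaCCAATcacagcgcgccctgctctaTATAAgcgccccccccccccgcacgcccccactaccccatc
Hist1h4a, chr13:23761250-23761499, minus strand: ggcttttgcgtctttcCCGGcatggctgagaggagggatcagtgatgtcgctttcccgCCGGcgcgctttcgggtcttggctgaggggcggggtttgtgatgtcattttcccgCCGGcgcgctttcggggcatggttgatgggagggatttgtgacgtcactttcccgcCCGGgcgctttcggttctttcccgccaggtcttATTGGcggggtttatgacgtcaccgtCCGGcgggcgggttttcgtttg

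Genes outside the clusters that belong to the same pathway were read in the same way. Of 12 replacement and variant histone genes, such as H2afz and H3f3a, whose products are deposited outside replication, 10 had at least 30 reads. H2afz, 1 of the 10, was called higher in untreated than in undifferentiated cells, where 1.50% of all genes were, with 9 and 51 reads (2.59-fold, 1.47 to 4.78) and 18 reads in the treated library. No other gene of the list was called higher in any comparison, and no gene of the list was called lower in any comparison. Of 12 regulators of the clustered genes and histone chaperones, such as Slbp, which binds the stem loop of their transcripts, and Npat, which activates them, all 12 had at least 30 reads and 0 were called in either direction. Of all genes, between 0.418% and 3.65% were called in a given direction and comparison, so 0 of 12 is close to that background. The median ratios of the 2 lists were 1.12 and 0.889 for untreated to undifferentiated and 1.26 and 0.903 for treated to undifferentiated cells. Within 500 bp of their starts, 10, 21 and 19 of 97 motifs were listed for the variant histones (10.3%, 21.6% and 19.6%), and 2, 4 and 7 of 82 for the regulators (2.44%, 4.88% and 8.54%). The shares at all protein-coding starts outside the clusters, over all motifs, were 10.4%, 16.5% and 20.0%.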

How the data were processed

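MethylRAD libraries of undifferentiated, untreated and treated E14Tg2A cells were analysed, with 1 library per condition, grouped by their labels. The authors trimmed the reads and discarded those lacking an FspEI site. Mapping to GRCm38 used Bowtie2 2.3.3, reads placed once were kept and positions under 5 reads were removed. The deposited counts are reads per position without normalization. The deposited RPM values divide them by the mapped reads of the library and were used as an alternative scale. CCGG motifs of GRCm38 (1630167) were located, classed by CpG content in 500 bp windows (high above a CpG ratio of 0.75 and 55% GC, low under a ratio of 0.48) and compared over 28 bases on both strands. Shares have 95% Wilson intervals and ratios exact binomial intervals. A position is named by the closest start codon.

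The members and lists were chosen with earlier results of these data known. Named were the 2 genes of each histone type with the most scaled reads, the 3 highest and lowest ratios per pair of libraries, the Hist3, Hist4 and testis genes, genes without a position, the 3 deepest positions and the 3 highest and lowest near starts. Other genes and positions were named after their values were seen. Alternatives changed the read minimum, depth, window, scale and value of absent positions. Counting and intervals were tested on simulated data. The software was SciPy 1.17.1, pandas 2.3.3 and numpy 2.4.6 under Python 3.11.15.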

Additional observations from a re-analysis of the deposited data

Results flagged for a closer look

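Outside CCGG, the treated library listed 42 CCAGG positions in the histone gene windows, against 15 in each of the other 2 libraries, and the reads there were 474, 226 and 226 in the treated, undifferentiated and untreated library. The tables of these motifs were not independent between libraries. All 15 CCTGG positions had the same count in each of the 3 libraries, and all 15 CCAGG positions had the same count in the undifferentiated and untreated library, whereas 2 of the 10 CCAGG positions that the treated library shared with either had the same count. These tables look repeated between libraries, so the counts are not a comparison of independent lists. This was singled out because the windows hold more listed positions in the treated library than in undifferentiated cells in a motif that was not used above. Over the genome the treated library had 3.33 times as many CCAGG positions as undifferentiated cells, and in the windows 2.8 times as many, so the windows did not stand above the genome.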

How the results depend on the processing

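There was 1 library per condition, so no replicate could be left out, and no paired analysis was possible because no result came from a test. Of 123 values under other settings, 81 stayed close to the main value, 40 moved beyond the counting interval or by over 1.5 times, and 2 changed direction. A change of direction was counted only where the main interval excluded 1. The untreated to undifferentiated ratio of the windows, whose interval held 1, also fell below 1. It was 0.941 with the gene alone, 0.946 with 2 kb on each side and 0.987 when scaled by the median ratio at shared positions. On the deposited RPM scale the treated to undifferentiated and treated to untreated ratios of the windows turned to 0.743 and 0.891, and the untreated to undifferentiated ratio moved to 0.834. The scales differ by a constant factor for each pair of libraries, the same for every gene. Why the share of CCGG reads among mapped reads differed between the libraries was not tested. On this scale the ratios of the spaces were 0.694, 0.485 and 0.699 for untreated to undifferentiated, treated to undifferentiated and treated to untreated, and 3 genes were called higher and 4 lower in treated against undifferentiated cells.

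With the gene alone, 31, 35 and 40 positions were listed in the undifferentiated, untreated and treated library, and the ratios to undifferentiated cells were 0.941 for untreated and 1.10 for treated. Only 6 genes were tested, the higher calls were 0, 0 and 1, and 0 genes were lower in treated against untreated cells. Hist1h3c had too few reads there to be tested. With 2 kb on each side these ratios were 0.946 and 1.06, 6 and 8 genes were called higher and 2 and 3 lower in untreated and treated against undifferentiated cells (31 genes tested, against 20), and 1 was higher in treated against untreated cells. Without Hist1h2be and Hist1h2bc, 29 and 44 positions were listed in the undifferentiated and treated library, and the ratios were 1.22 and 1.44.

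With a minimum of 10 reads, 37 and 38 positions were listed in the untreated and treated library, the listed shares were 8.56%, 8.33% and 8.56%, and 2 genes were called lower in treated against untreated cells. With absent positions at 0 reads, 6 and 8 genes were called higher in untreated and treated against undifferentiated cells, against 5 and 6, and 1 and 2 genes were called lower in treated against undifferentiated and untreated cells. Among motifs found once the shares were 26.2%, 29.3% and 32.5%. Without the space between Hist2h3c1 and Hist2h4 the ratios of the spaces to undifferentiated cells were 0.980 and 0.944. In spaces of at most 10 kb the listed shares were 83.3%, 75.0% and 66.7%. Depth limits single positions: most of those listed in 1 library had fewer than 10 reads.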
